A study of Mus musculus with 12 samples.

Results

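The genes described here are 36 genes of the endoplasmic reticulum (ER): its chaperones, its disulfide isomerases and oxidases, the machinery of ER-associated degradation (ERAD), and the sensors and regulators of the unfolded protein response (UPR). They were taken by symbol from a deposited table of 23184 gene symbols, in which each of the 36 symbols occurred once. The list was drawn up with results of these data in view, among them the difference between Wdr62 knockdown and control cells. Values of that comparison are therefore a description, given with differences and standard errors. No p-value of a member is printed for it, and counts and calls at a p threshold are part of the description. Of the 36 genes, 35 had a mean of at least 1 TPM (a gene's level corrected for transcript length and scaled to the same total in every library) and were tested, and 34 of these were at 1 TPM or more in every library. The tested gene below 1 TPM in a library was Ern1, at 0.713 TPM in RE 3. Derl3, a derlin gene of the degradation machinery, was not tested: it was listed at 0 in 10 of 12 libraries and at 0.146 TPM in CON 1 and 0.229 TPM in KD 1.

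The cells were HL-1, a line from the atrium of a mouse that is labelled as cardiac muscle, and all groups were kept in DMEM with fetal bovine serum. Control cells (CON, genotype WT) carried viral pCDH and lentiCRISPRv2 vectors, knockdown cells (KD, genotype WDR62-) received virus with a guide against Wdr62, and re-expression cells (RE, genotype WDR62+) were KD cells given virus for pCDH-WDR62-WT-flag. Each group held 4 libraries. The labels put pCDH in CON and RE but leave it out of KD, and whether KD was 1 clone or a pool is not stated, so vector, clone and guide cannot be told apart. Separate cultures are not mentioned for the 4 libraries of a group, and the p-values below therefore measure the spread between these libraries, which may be technical.

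Wdr62 itself was at 3.38 to 7.45 TPM in CON, 0.881 to 1.40 TPM in KD and 0.772 to 1.99 TPM in RE, so KD matched its label. Wdr62 did not show the WDR62+ label of RE, where it differed from KD by 0.05 on the log2 scale (exact two-sided permutation p = 0.886, n = 4 and 4). The species of the added cDNA is not stated, and RE below means the libraries labelled RE. Of 15 cardiac muscle markers, 5 had a mean of at least 1 TPM. Tnnt2 for cardiac troponin T was at 12.9 to 26.7 TPM and Gja1 at 410 to 949 TPM across the libraries. Nkx2-5 was at 3.60 to 8.50 TPM in CON, 9.79 to 14.8 in KD and 12.9 to 26.7 in RE. Nkx2-5 passed as higher than CON in KD (1.10 ± 0.27) and in RE (1.63 ± 0.27). Gja1, Gata4 and Myl4 overlapped between CON and KD. The atrial and sarcomere genes Actc1 and Myl7 were listed at 0 in every library, and Myh6 did not exceed 0.209 TPM. Summed endothelial markers stayed below 1.39 TPM in every library. The summed macrophage and leukocyte markers were at 134 to 182 TPM in CON, 221 to 253 in KD and 176 to 271 in RE, nearly all of it Cd14. Of these 8 genes 3 had a mean of at least 1 TPM: Cd14 at 130 to 174 TPM in CON and 206 to 234 in KD, Lyz2 at 0.239 to 2.21 in CON, 5.33 to 9.05 in KD and 8.58 to 13.5 in RE, and Cd68 at 4.31 to 6.97 in CON and 6.60 to 8.80 in KD. Cd14 and Lyz2 passed as higher in KD than in CON (0.62 ± 0.16 and 2.17 ± 0.29), and Lyz2 also in RE (2.66 ± 0.29). The defining gene Adgre1 was at 0 throughout, and Ptprc was at 0 in CON and KD and at most 0.0434 TPM in RE. The summed epithelial markers, nearly all Krt19, were at 19.5 to 37.9 TPM in CON and 0.648 to 2.17 TPM in KD. Summed skeletal muscle markers were at 24.3 to 42.9 TPM in CON, 8.90 to 12.01 in KD and 10.4 to 16.1 in RE. Myod1, Myf5, Acta1 and Chrna1 lay lower in every KD library than in any CON library, and Myog, Ckm and Tnnt3 overlapped. Summed smooth muscle markers, mostly Acta2 and Des, were at 1198 to 1488 TPM in CON, 1054 to 1571 in KD and 754 to 1865 in RE. Of 10 fibroblast markers 7 had a mean of at least 1 TPM, and Lum and Tcf21 were at 0. The sums, most of it Col3a1, were 2753 to 4268 TPM in CON, 2953 to 4252 in KD and 1560 to 2525 in RE. Single markers differed from the sum: Dcn was at 23.6 to 81.4 TPM in CON and 4.10 to 6.18 in KD. Col1a1 was at 78.3 to 108 and 41.8 to 64.4, and Fap at 0.966 to 3.56 and 0.244 to 0.760. Col1a2, Col3a1, Pdgfra and Postn overlapped between CON and KD. The 4 genes of secretory cells, nearly all of it Sdc1, summed to 236 to 278 TPM in CON, 327 to 420 in KD and 264 to 364 in RE. The other genes of this list did not share the rise of Sdc1. Prdm1 was at 2.38 to 5.54 TPM in CON and 2.80 to 5.10 in KD. Bhlha15 did not exceed 0.0367 TPM in any library, and Irf4 was at 0.0259 to 0.124 TPM in CON and at 0 in KD and RE. Whether these marker genes have a part in the differences below was not tested. In bulk RNA, fewer cells of a type and less RNA per cell cannot be told apart.

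3 libraries, CON 4, RE 1 and RE 3, stood apart in their long transcripts. The 2268 tested genes with the longest transcripts had a median log2 value, relative to each gene's mean, of -0.82 in CON 4 and of 0.46 to 0.70 in CON 1 to CON 3. The same median was -0.72 in RE 1, -0.99 in RE 3, -0.11 in RE 2 and -0.13 in RE 4. In KD it ran from -0.21 in KD 3 to 0.56 in KD 1. Counts of members are given with and without these libraries, and single differences without them only where stated.

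Proteins that enter the secretory pathway fold in the ER lumen, where Hsp70 and Hsp90 family chaperones, lectin chaperones and disulfide isomerases act on them. When unfolded proteins accumulate, the membrane sensors IRE1 (Ern1), ATF6 (Atf6) and PERK (Eif2ak3) start the UPR. IRE1 splices Xbp1 mRNA into the form that encodes the active factor, cleaved ATF6 and spliced XBP1 raise transcription of chaperone and ERAD genes, and PERK phosphorylates the translation factor eIF2 alpha. Gene-level TPM does not separate spliced from unspliced Xbp1 mRNA, nor does it show cleavage or phosphorylation, so only transcript levels are described.

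Together the 36 transcripts took up a larger share of the transcriptome in KD than in CON. Their summed level was 11248 ± 952 TPM in CON, 25336 ± 4875 TPM in KD and 18201 ± 4047 TPM in RE (mean ± SD, n = 4 libraries, as for all levels below). As a percentage of all TPM the sum was 1.07% to 1.27% in CON, 1.91% to 3.05% in KD and 1.39% to 2.30% in RE. The ranges of KD and RE overlapped, and neither overlapped that of CON. Hspa5, Hsp90b1, Calr, P4hb and Pdia3 made up 64.3% to 74.7% of the sum in every library. In CON, 4 members had a mean of at least 1000 TPM and 19 of at least 100 TPM.

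**Figure D1:**
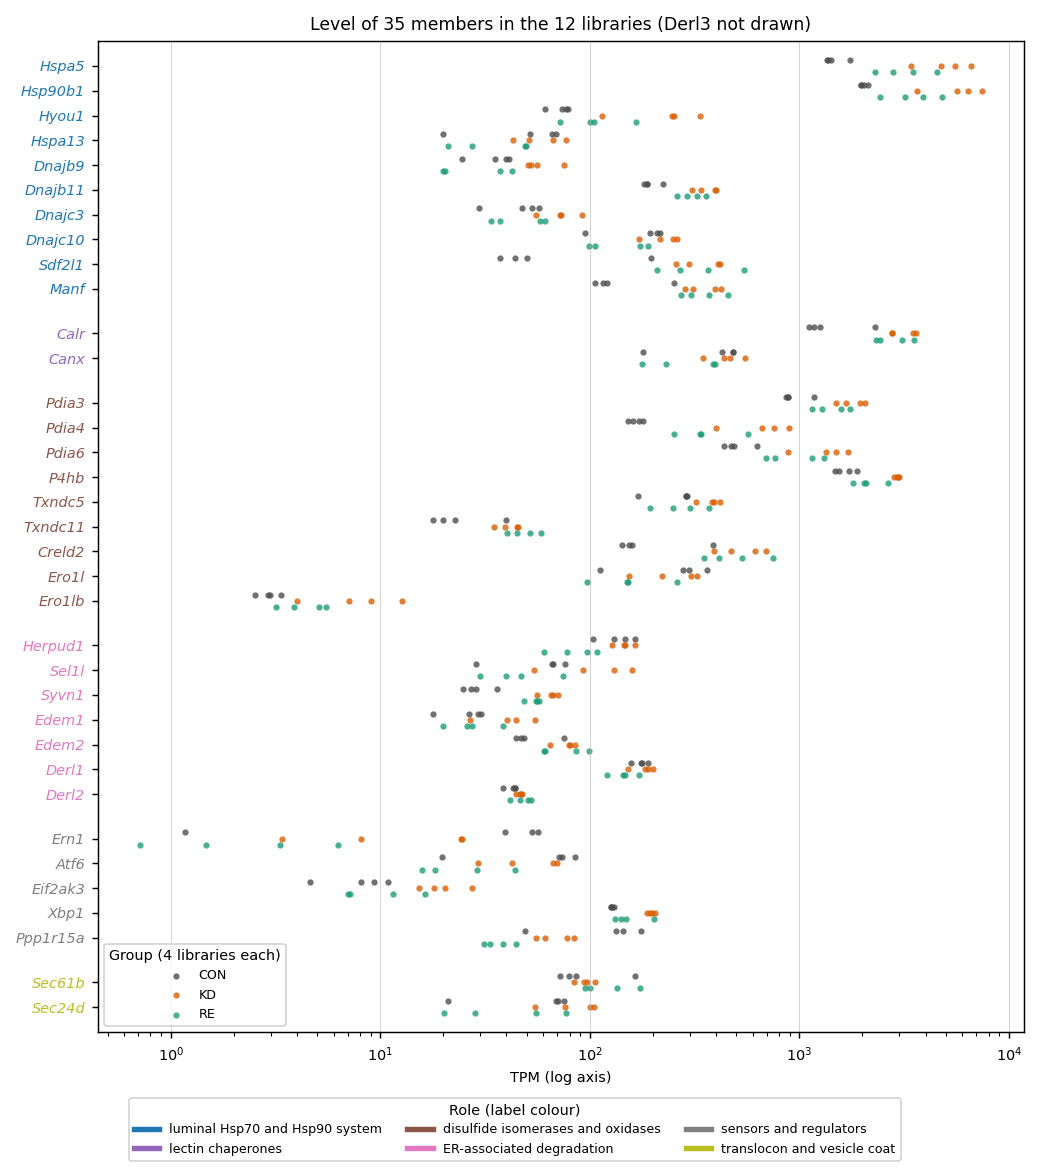
TPM of 35 members (rows, coloured by role) on a log axis in the 4 CON, 4 KD and 4 RE libraries, 1 point per library. Hspa5 and Hsp90b1 lie above 1000 TPM in every library, Ero1lb lies between 2.53 and 12.7 TPM, and Ern1 spans 0.713 to 56.5 TPM.

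KD was compared with CON to find what changed when Wdr62 was targeted. Each difference is given as log2(TPM + 1) ± its standard error (SE), and a gene counts as higher or lower when its adjusted p in the fit over 11774 genes is below 0.05. Of 35 tested members, 16 were higher in KD and 0 were lower, beside 6.60% higher and 3.61% lower among all tested genes, or 10.2% in either direction. Since the list was made with this comparison in view, nothing is read from that count, from those that follow or from the single calls. The limma test gave 22 higher and 1 lower at an unadjusted p below 0.05, beside 13.6% and 10.2% of all tested genes. The median member difference was 0.73, beside -0.01 for all tested genes. In 19 members every KD library lay above every CON library, against 11.9% of all tested genes, and in 0 below (7.02%).

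Among the 10 genes of the luminal Hsp70 and Hsp90 system, 6 rose: Hspa5, Hsp90b1, Hyou1, Dnajb11, Sdf2l1 and Manf. Hspa5 encodes BiP, the Hsp70 of the ER and the binding partner that holds the UPR sensors inactive (chromosome 2, 34771970 to 34777547, plus strand, GRCm38). It stood at 1375, 1423, 1355 and 1745 TPM in CON 1 to CON 4, at 6621, 4722, 3421 and 5524 TPM in KD 1 to KD 4, and at 2297, 4561, 3480 and 2792 TPM in RE 1 to RE 4. The lowest KD library was above the highest CON library, and KD 3 was the lowest of KD. The difference from CON was 1.75 ± 0.23, a 3.44-fold ratio of the group means.

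Hsp90b1, which encodes the ER Hsp90 GRP94 (chromosome 10, 86690209 to 86705509, minus strand), ranked the KD libraries and the RE libraries in the same order as Hspa5. Its level was 2038, 1973, 1979 and 2121 TPM in CON, 7453, 5626, 3626 and 6356 TPM in KD, and 2425, 4789, 3893 and 3191 TPM in RE. KD and CON did not overlap, and KD exceeded CON by 1.46 ± 0.23. Its exons overlap those of 1810014B01Rik (8.86 TPM) on the opposite strand.

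Hyou1, the nucleotide exchange factor GRP170 of BiP, was at 76.8, 73.7, 78.6 and 61.0 TPM in CON, 335, 247, 115 and 251 TPM in KD, and 71.8, 166, 99.8 and 105 TPM in RE (KD minus CON 1.60 ± 0.31). KD lay wholly above CON, whereas RE reached down into the CON range. Sdf2l1, an ER-resident partner of the BiP chaperone complex, had the largest difference of all members (chromosome 16, 17130138 to 17132383, minus strand). It was at 44.2, 37.1, 50.02 and 195 TPM in CON, 408, 298, 259 and 416 TPM in KD, and 271, 368, 544 and 209 TPM in RE. CON 4 stood far above the other CON libraries and still below every KD and RE library. KD exceeded CON by 2.40 ± 0.46, and without CON 4 by 2.93. The ratio of group means was 4.23 with CON 4 and 7.89 without it.

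Manf, a secreted and ER-retained factor that binds BiP, went from 148 ± 68.6 TPM in CON to 353 ± 66.2 TPM in KD (1.32 ± 0.26), and Dnajb11, a J-domain co-chaperone of BiP, from 195 ± 18.5 to 361 ± 46.0 TPM (0.88 ± 0.14). Manf also stood higher in CON 4, at 251 TPM, than in the other CON libraries, at 106 to 121 TPM. The remaining 4 genes of the group did not pass. They were the J-domain genes Dnajb9 (0.73 ± 0.27), Dnajc3 (0.65 ± 0.26) and Dnajc10 (0.38 ± 0.29) and the Hsp70 family gene Hspa13 (0.31 ± 0.39). Without CON 4 these differences were 0.57, 0.45, 0.10 and -0.08. Dnajb9 nevertheless lay higher in every KD library, at 50.7 to 75.6 TPM, than in any CON library, at 24.5 to 41.1 TPM.

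The lectin chaperones calreticulin and calnexin, which bind glycoproteins that carry a trimmed sugar, are given here in turn; Calr passed and Canx did not. Calr, the soluble one (chromosome 8, 84841850 to 84846934, minus strand), was at 1179, 1106, 1249 and 2290 TPM in CON, 3492, 2764, 2761 and 3603 TPM in KD, and 2423, 3092, 3531 and 2315 TPM in RE. It rose by 1.17 ± 0.23, with CON 4 between the other CON libraries and KD. Canx, the membrane-bound one, was at 484, 483, 427 and 179 TPM in CON, 553, 465, 348 and 436 TPM in KD, and 231, 395, 178 and 387 TPM in RE. Its groups overlapped, its difference was 0.28 ± 0.34, and without CON 4 that difference was -0.06.

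Of 9 disulfide isomerases and oxidases, which form and rearrange disulfide bonds, 6 rose: Pdia4, Creld2, Pdia6, Ero1lb, Pdia3 and P4hb. Pdia4 encodes the isomerase ERp72 (chromosome 6, 47796141 to 47813430, minus strand). It was at 160, 153, 171 and 180 TPM in CON, 889, 663, 398 and 754 TPM in KD, and 252, 567, 335 and 338 TPM in RE. All KD and all RE libraries lay above all CON libraries, and KD exceeded CON by 1.96 ± 0.26, a ratio of means of 4.07.

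Pdia6, a further isomerase, was at 473, 438, 488 and 631 TPM in CON, 1704, 1340, 883 and 1493 TPM in KD, and 695, 1317, 1151 and 766 TPM in RE (KD minus CON 1.39 ± 0.24). Creld2, a secreted protein of the ER lumen with isomerase motifs, was at 155, 143, 160 and 387 TPM in CON, 691, 471, 392 and 617 TPM in KD, and 412, 534, 749 and 350 TPM in RE (1.46 ± 0.33). CON 4 lay just below KD 3 for Creld2, and the call of Creld2 was lost without KD 1. Ero1lb, an oxidase that recharges isomerases, was low, at 3.37, 2.93, 2.96 and 2.53 TPM in CON, 12.7, 8.99, 4.01 and 7.05 TPM in KD, and 3.17, 5.502, 5.11 and 3.89 TPM in RE (1.13 ± 0.28). Its call was lost without any 1 of CON 2, CON 3, KD 1, KD 2 and KD 4.

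The abundant isomerases showed smaller differences with smaller SE. P4hb, the prototype protein disulfide isomerase, went from 1660 ± 187 to 2935 ± 66.3 TPM (0.83 ± 0.13), and Pdia3, the partner isomerase of the lectin chaperones, from 949 ± 150 to 1796 ± 253 TPM (0.92 ± 0.17). The thioredoxin-domain genes Txndc11 (0.76 ± 0.23) and Txndc5 (0.58 ± 0.22) did not pass, and Txndc11 shares exon bases with Snn (32.0 TPM) on the opposite strand. Ero1l, the paralogue of Ero1lb, was at 263 ± 107 TPM in CON and 251 ± 78.7 TPM in KD, a difference of 0.00 ± 0.39.

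**Figure D2:**
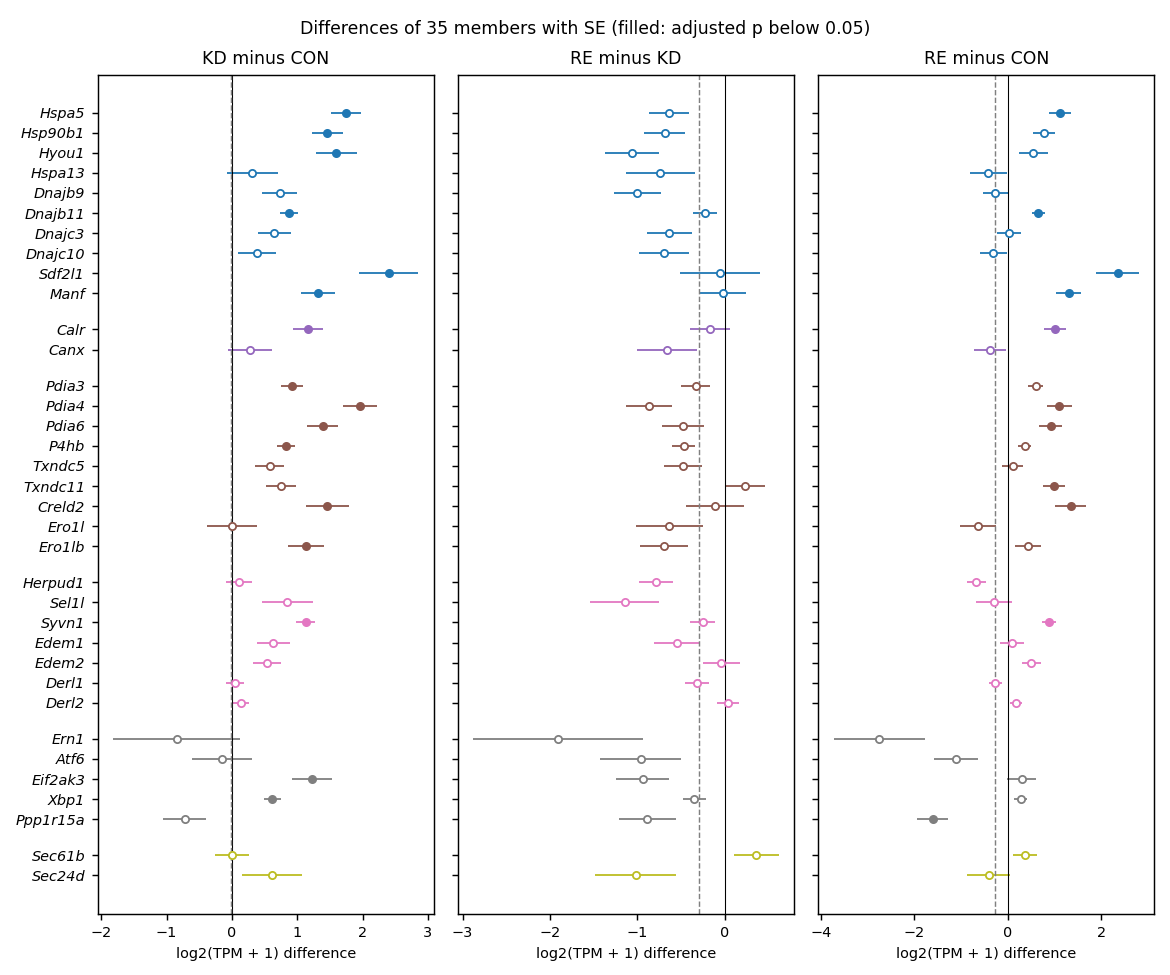
Difference of each of 35 members on the log2(TPM + 1) scale with its SE for KD minus CON, RE minus KD and RE minus CON; filled points passed an adjusted p of 0.05, the solid line marks 0 and the dashed line the median of all 11774 tested genes. The 16 filled points of KD minus CON lie right of 0, no point of RE minus KD is filled, and in RE minus CON 10 filled points lie right of 0 and 1, Ppp1r15a, left of it.

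Of the 8 ERAD genes, 7 were tested and 1, Syvn1, rose. Syvn1 encodes the ubiquitin ligase HRD1 that marks misfolded proteins at the ER membrane (chromosome 19, 6046576 to 6053712, plus strand). It was at 27.1, 24.8, 28.8 and 36.1 TPM in CON, 70.7, 56.0, 65.4 and 66.8 TPM in KD, and 55.1, 56.1, 48.3 and 57.1 TPM in RE, with no overlap between CON and either other group. KD exceeded CON by 1.13 ± 0.15. Its exons share 91 bases with Mrpl49 (73.4 TPM) on the opposite strand, and the sources used here do not say whether strand was used.

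Sel1l, the adaptor of HRD1, was at 67.0, 76.0, 66.3 and 28.5 TPM in CON, 160, 130, 54.0 and 93.2 TPM in KD, and 29.9, 74.9, 39.7 and 47.1 TPM in RE. KD 3 fell inside the CON range, and the difference of 0.85 ± 0.39 did not pass. Herpud1, a membrane protein that recruits the HRD1 complex and a classic UPR target, was at 164, 147, 130 and 104 TPM in CON, 163, 147, 127 and 146 TPM in KD, and 77.8, 109, 60.7 and 96.8 TPM in RE. The KD range lay inside the CON range, with a difference of 0.11 ± 0.19 and a 95% interval of -0.31 to 0.53. Edem1, a mannosidase-like factor that extracts glycoproteins for degradation, was at 29.4, 30.4, 26.6 and 17.9 TPM in CON, 54.8, 44.5, 26.7 and 40.3 TPM in KD, and 20.0, 38.4, 27.4 and 26.0 TPM in RE (0.64 ± 0.26, not passed). The other 3 were Edem2 at 0.54 ± 0.21 and the derlin genes Derl2 at 0.13 ± 0.12 and Derl1 at 0.04 ± 0.14. Derl2 shares exon bases with Mis12 (46.4 TPM) on the opposite strand.

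The 5 sensors and regulators did not share 1 direction in KD. Eif2ak3, which encodes the sensor kinase PERK, was at 9.35, 8.08, 10.8 and 4.63 TPM in CON, 27.4, 20.4, 15.4 and 18.1 TPM in KD, and 7.03, 16.3, 7.15 and 11.5 TPM in RE. KD was above CON in every library, by 1.23 ± 0.31, a call lost without any 1 of CON 2, KD 1, KD 2 and KD 4. Xbp1 was at 127, 127, 126 and 130 TPM in CON, 205, 188, 194 and 199 TPM in KD, and 132, 202, 141 and 149 TPM in RE. It rose by 0.62 ± 0.13 in KD, with no overlap between the groups, and CON 4 did not stand apart for it.

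Ern1, the sensor IRE1, had the widest spread of all members (chromosome 11, 106394650 to 106487852, minus strand). It was at 52.7, 56.5, 39.6 and 1.17 TPM in CON, 24.7, 24.3, 3.41 and 8.06 TPM in KD, and 1.48, 6.27, 0.713 and 3.31 TPM in RE. CON 4 lay below every KD library and every other CON library above every KD library. The difference of KD from CON was -0.85 ± 0.97, and -1.98 ± 0.61 without CON 4, when Ern1 passed as lower. Atf6 was at 73.6, 84.6, 71.6 and 19.7 TPM in CON, 66.4, 69.4, 29.3 and 42.6 TPM in KD, and 18.2, 43.9, 15.9 and 29.0 TPM in RE. Its difference was -0.15 ± 0.47 in KD and changed sign without CON 2 or without KD 3.

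Ppp1r15a encodes GADD34, the phosphatase subunit that reverses the PERK signal on eIF2 alpha (chromosome 7, 45522916 to 45526268, minus strand). It was at 134, 176, 144 and 49.3 TPM in CON, 83.7, 77.8, 55.6 and 61.0 TPM in KD, and 31.4, 44.4, 38.7 and 33.4 TPM in RE. KD differed from CON by -0.72 ± 0.33, which did not pass, and by -1.12 ± 0.18 without CON 4, which did. Every RE library lay below every KD and every CON library.

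Neither gene of the translocon and vesicle coat passed. Sec61b, a subunit of the channel through which proteins enter the ER, was at 86.1, 72.4, 79.6 and 164 TPM in CON, 83.7, 93.9, 106 and 97.3 TPM in KD, and 101, 135, 174 and 95.2 TPM in RE (0.00 ± 0.26). Sec24d, a cargo adaptor of the COPII coat that leaves the ER, was at 75.7, 70.7, 68.7 and 21.1 TPM in CON, 99.999, 105, 54.8 and 76.3 TPM in KD, and 28.4, 77.3, 20.2 and 55.1 TPM in RE (0.61 ± 0.46). CON 4 stood apart from the other CON libraries in opposite directions for these genes, high for Sec61b and low for Sec24d.

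**Figure D3:**
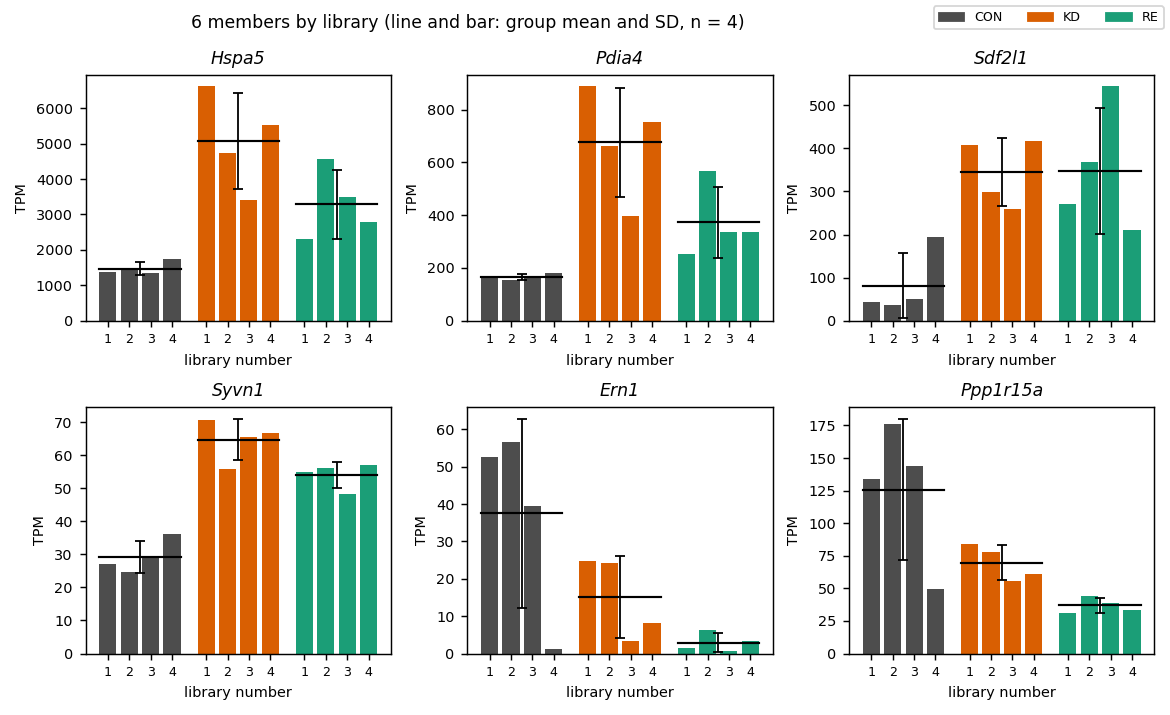
TPM of Hspa5, Pdia4, Sdf2l1, Syvn1, Ern1 and Ppp1r15a in each library (bars, axes from 0), with a line at each group mean and an SD bar (n = 4). Hspa5, Pdia4, Sdf2l1 and Syvn1 lie lower in every CON library than in any KD library, Ern1 is at 1.17 TPM in CON 4 against 39.6 to 56.5 TPM in the other CON libraries, and Ppp1r15a is lowest in RE.

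The 16 calls of KD against CON became 18 without CON 4 and 21 without CON 4, RE 1 and RE 3, beside 9.48% and 14.2% of all tested genes higher, and each of the 16 was among them. Without CON 4, Txndc11 and Edem2 also passed as higher, and Ern1 and Ppp1r15a as lower, beside 11% of all tested genes lower. The counts were 20 higher and 0 lower when a trend on transcript length was subtracted from each library. Beside them, 1342 and 1116 of all 11774 tested genes were then higher and lower. With median-of-ratios scaling the count was 13 higher and 0 lower, beside 7.54% and 5.79% of all tested genes. Manf, Calr, Pdia3, P4hb, Creld2 and Xbp1 no longer passed under it, and Dnajb9, Dnajc3 and Txndc5 did.

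Promoters of the UPR targets are known to carry the ER stress response element (ERSE), the site at which ATF6 and XBP1 act together with the factor NF-Y. RefSeq promoter windows of 300 bases (250 before the start and 50 after it, GRCm38.p6) were at hand for 31 of the 36 genes, with Ero1l and Ero1lb matched through their synonyms. The letters CCAAT and, after 9 bases of any kind, CCACG were found on either strand in 10 of the 31, or 32.3%, beside 0.119% of all 32851 windows and 0.137% of the 27025 genes with a window. Since the element is known from UPR targets, its higher share among the members is a description. The matches in the 9 expressed members are shown with 5 bases on each side, read on the strand of the gene. They are shown because, of the 3 motifs searched, these letters occurred in the most members. Capitals mark the match. In Calr, Creld2, Ero1lb and the second match of Hsp90b1 the letters lie on the opposite strand and read CGTGG, 9 bases, ATTGG.
Hspa5: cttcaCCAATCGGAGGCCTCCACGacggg
Hsp90b1 first match: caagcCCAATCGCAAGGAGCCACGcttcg
Hsp90b1 second match: gagtgCGTGGTGAGGCACGATTGGtgagt
Pdia6: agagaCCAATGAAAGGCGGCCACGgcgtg
Creld2: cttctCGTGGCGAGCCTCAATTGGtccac
Calr: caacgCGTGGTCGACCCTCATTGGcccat
Canx: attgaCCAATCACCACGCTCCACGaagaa
Syvn1: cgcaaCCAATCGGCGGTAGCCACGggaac
Dnajc3: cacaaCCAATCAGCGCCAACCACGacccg
Ero1lb: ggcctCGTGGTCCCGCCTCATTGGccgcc

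Distances are from the RefSeq start, which for some genes differs from the gene limits above, where GENCODE covers all transcripts of a gene. For Hspa5 the RefSeq start is 34772090 and for Hsp90b1 86705444. The Hspa5 stretch lies at chr2:34772020-34772048 on the plus strand, with the match 65 to 47 bases before the start. Those of Hsp90b1 lie at chr10:86705633-86705661 and chr10:86705528-86705556 on the minus strand, 212 to 194 and 107 to 89 bases before the start. The Syvn1 match was the nearest to its start, 44 to 26 bases before it, at chr19:6046527-6046555. The stretches of Pdia6 (chr12:17266486-17266514), Creld2 (chr15:88819515-88819543), Dnajc3 (chr14:118937822-118937850) and Ero1lb (chr13:12565677-12565705) belong to genes on the plus strand. Those of Calr (chr8:84847070-84847098) and Canx (chr11:50325795-50325823) belong to genes on the minus strand. A match is a description of the letters and does not show that a factor binds there. Of the 9 expressed genes with a match, 7 rose in KD (Hspa5, Hsp90b1, Pdia6, Creld2, Calr, Syvn1 and Ero1lb), and Canx and Dnajc3 did not pass. Their median KD difference was 1.17, beside 0.62 for the 21 tested members with a window and no match. Derl3, listed at 0 in 10 libraries, also held a match. These medians come from the comparison with which the list was made and are given as a description. For the motifs described next, the medians with and without a match were 0.50 and 0.74 for ERSE-II (2 and 28 members) and 0.61 and 0.83 for the UPR element (3 and 27 members).

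The related element ERSE-II, ATTGG and after 1 base CCACG, occurred in Herpud1 and Dnajb11, beside 0.0365% of all windows, and TGACGTGG (the UPR element bound by XBP1) in Sec24d, Txndc11 and Txndc5, beside 0.676% of all windows. No member window held more than 1 of the 3 motifs. The Herpud1 match lies 52 to 42 bases before the start at chr8:94386372-94386392 on the plus strand and is shown because this gene did not differ between KD and CON beyond its spread.
Herpud1: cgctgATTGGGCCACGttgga

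RE was compared with KD to find what changed when WDR62 was added back. By the limma test 0 members were higher and 0 lower in RE than in KD, beside 0.187% higher and 0.858% lower among all tested genes, or 1.04% in either direction. Wdr62 itself did not differ beyond its spread between these groups. The list was made with KD against CON in view, and this comparison shares the KD libraries. Any choice of genes by high KD values would favour lower values in RE, so the differences and p-values here are a description. At an unadjusted p below 0.05 the counts were 0 higher and 17 lower of 35, beside 6.36% and 21.6% of all tested genes. The median difference of all tested genes was itself -0.29 in this comparison, and that of the members -0.63; with median-of-ratios scaling these medians were 0.00 and -0.30. In 4 members, Dnajb9, P4hb, Herpud1 and Ppp1r15a, every RE library lay below every KD library, beside 10.8% of all tested genes, and in 0 above (3.47%).

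The intervals of the single differences were wide. Hspa5 differed by -0.63 with a 95% interval of -1.14 to -0.13 (adjusted p = 0.141), Pdia4 by -0.86 (-1.43 to -0.29, adjusted p = 0.107) and Hyou1 by -1.06 (-1.73 to -0.38, adjusted p = 0.101). With median-of-ratios scaling these differences were -0.31, -0.53 and -0.73, and with the length trend subtracted -0.28, -0.71 and -0.52. Herpud1 had the smallest adjusted p of the members, 0.0706, at -0.78 (-1.20 to -0.36), with 86.0 ± 21.1 TPM in RE against 146 ± 14.8 in KD. P4hb went from 2935 ± 66.3 to 2140 ± 363 TPM (-0.47 ± 0.13, adjusted p = 0.0955) and Dnajb9 from 58.6 ± 11.5 to 30.1 ± 11.6 TPM (-0.9996 ± 0.27, adjusted p = 0.086). With median-of-ratios scaling Herpud1 was at -0.46, P4hb at -0.14 (adjusted p = 0.70) and Dnajb9 at -0.68, and with the length trend subtracted P4hb was at -0.24. Without CON 4, RE 1 and RE 3, Herpud1 was at -0.50, P4hb at -0.32 and Dnajb9 at -0.52. Hspa5, Pdia4 and Hyou1 were then at -0.47, -0.57 and -0.74. Sdf2l1, Manf and Creld2 lay close to their KD levels, at -0.05 (-1.05 to 0.95), -0.02 (-0.59 to 0.56) and -0.11 (-0.83 to 0.60), and the sign of all 3 turned with median-of-ratios scaling. Txndc11 (0.23), Sec61b (0.36) and Derl2 (0.04) were the 3 members with a positive difference.

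The count of members lower in RE than in KD depended on single libraries. It was 12 without CON 4, which enters this comparison only through the shared spread, 6 without RE 2 and 3 without KD 3. The shares of all tested genes that were lower also moved, to 19.9%, 3.44% and 2.65%. The 12 were Hyou1, Dnajb9, Dnajc3, Dnajc10, Pdia4, P4hb, Herpud1, Sel1l, Ern1, Atf6, Eif2ak3 and Ppp1r15a. Without CON 4, RE 1 and RE 3 the count was 0, beside 0.289% of all tested genes. With the length trend subtracted it was 1, Herpud1 (-0.73, adjusted p = 0.0421), beside 126 of all 11774 tested genes.

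RE was also compared with CON, to see where RE stood relative to the vector control. Of 35 members 10 were higher and 1 was lower, beside 2.70% higher and 3.63% lower among all tested genes, or 6.33% in either direction. The median of all tested genes was -0.27, and 0.01 with median-of-ratios scaling. The members' medians were 0.29 and 0.58. In 11 members every RE library lay above every CON library, against 4.46% of all tested genes, and in 1 below (4.76%). This comparison shares the CON libraries with KD against CON, so the values are set side by side and not counted as separate evidence.

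The higher members were chaperones, isomerases and Syvn1. Sdf2l1 exceeded CON by 2.35 ± 0.46 (adjusted p = 0.00855), beside 2.40 for KD. Manf exceeded it by 1.30 ± 0.26 (adjusted p = 0.0107), beside 1.32 for KD, and Hspa5 by 1.11 ± 0.23 (adjusted p = 0.0124), beside 1.75. Syvn1 exceeded CON by 0.88 ± 0.15 (adjusted p = 0.0029), beside 1.13, and Dnajb11 by 0.65 ± 0.14 (adjusted p = 0.0128), beside 0.88. The other 5 were Creld2 (1.35), Pdia4 (1.10), Calr (1.01), Txndc11 (0.99) and Pdia6 (0.91), with adjusted p from 0.0196 for Calr to 0.0437 for Pdia6. Txndc11 had passed in RE and not in KD, where it stood at 41.2 ± 5.001 TPM against 48.8 ± 7.87 in RE and 25.04 ± 9.94 in CON. Its RE value exceeded that of KD by 0.23, which did not pass (adjusted p = 0.467).

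Ppp1r15a was the 1 member lower in RE than in CON, by -1.61 ± 0.33 (adjusted p = 0.0106), with 37.0 ± 5.85 TPM against 126 ± 54.1. Ern1 was at -2.75 ± 0.97 (adjusted p = 0.117), Atf6 at -1.11 ± 0.47 (adjusted p = 0.155) and Herpud1 at -0.67 ± 0.19 (adjusted p = 0.0621). These 3 passed as lower without CON 4, at -3.88, -1.59 and -0.79. With the length trend subtracted Atf6 was at -0.36 (adjusted p = 0.164) and Ern1 at -2.03 (adjusted p = 0.0646), and Herpud1 passed at -0.64 (adjusted p = 0.0214). Hsp90b1 at 0.77 ± 0.23 (adjusted p = 0.0748) and Pdia3 at 0.59 ± 0.17 (adjusted p = 0.0553) missed the threshold. Hsp90b1 lay above CON in every RE library and passed without CON 4.

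Hspa5, Sdf2l1, Manf, Syvn1 and Ppp1r15a kept their calls in RE against CON in each of the 12 fits that left out 1 library, and Dnajb11 in 10 of them. The other 5 lost theirs in 5 to 7 of the 12 fits. The count of higher members was 4 without CON 2 or CON 3, and 5 without CON 1, RE 2 or RE 3. The share of all tested genes higher in these fits was 1.37% to 1.94%. Without CON 4, 15 members were higher and 8 lower. Of all tested genes 10.8% were then higher and 42% lower, so the 8 of 35 lower lay under the share of all genes. The count of higher members was 16 without CON 4, RE 1 and RE 3 (8.13% of all tested genes). With the length trend subtracted it was also 16 (856 of all 11774 tested genes). With quantile normalization it was 10 (5.71% of all tested genes), without Hspa5 and with Eif2ak3, and Calr no longer passed with median-of-ratios scaling. With only RE and CON in the fit it was 6 (1.3% of all tested genes), without Calr, Pdia6, Txndc11 and Creld2.

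Within KD and within RE most members had the same extreme libraries, while in CON they split. Of 35 members, 24 were highest in KD 1 and 29 lowest in KD 3 among the KD libraries. In RE, 26 were highest in RE 2, and 18 were lowest in RE 1. In CON, 16 were highest and 18 lowest in CON 4. The longest annotated transcript of a member ran from 723 bases for Sec61b to 7246 for Atf6. Among the 17 members of 723 to 3175 bases, CON 4 lay above the mean of the other CON libraries in 12, with a median log2 difference of 0.26. Among the 18 of 3222 to 7246 bases it lay above in 5, with a median of -0.84. The median KD difference was 0.83 in the shorter set and 0.64 in the longer one.

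**Figure D4:**
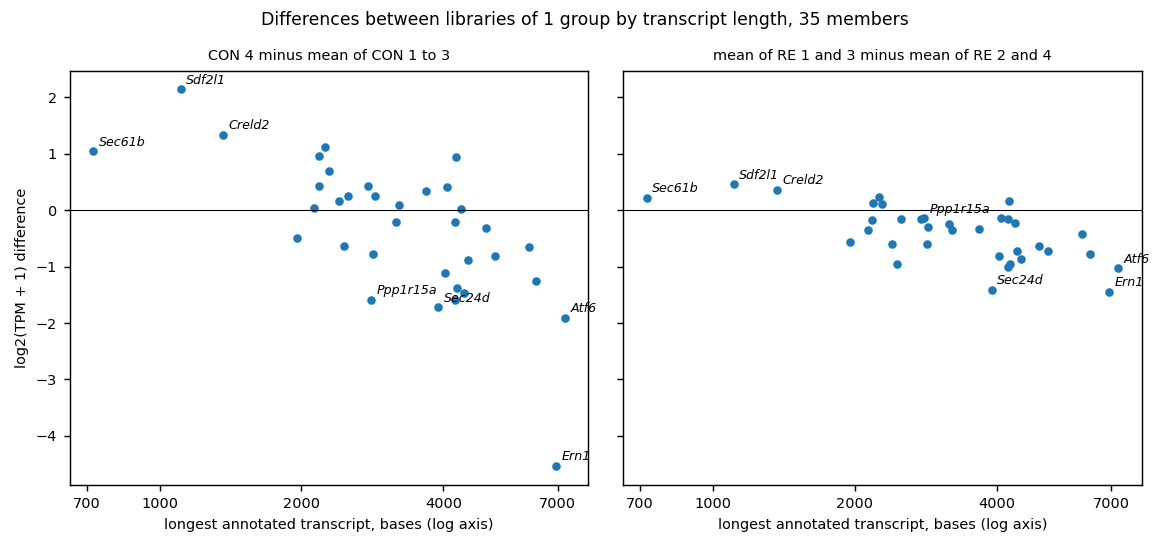
Difference on the log2(TPM + 1) scale between libraries of 1 group for 35 members, against the length of the longest annotated transcript (log axis): CON 4 minus the mean of the other CON libraries (left) and the mean of RE 1 and RE 3 minus that of RE 2 and RE 4 (right). In CON 4, Sdf2l1 lies at 2.14 and Creld2 at 1.34, while Ern1 lies at -4.53 and Atf6 at -1.90.

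Genes of 6 neighbouring steps, chosen by function, were counted in the same fits. Of 140 tested genes 18 were higher and 1 was lower in KD than in CON, 0 were higher or lower in RE than in KD, and 6 were higher and 3 lower in RE than in CON. The shares of all tested genes were 6.60% and 3.61%, 0.187% and 0.858%, and 2.70% and 3.63% in these comparisons. The lists were drawn up with earlier results known, so their counts are a description too. Of 24 other folding factors 5 rose in KD, with Fkbp14, a prolyl isomerase of the ER, going from 21.7 ± 3.87 to 63.4 ± 9.21 TPM (1.51 ± 0.22) and Pdia5, a disulfide isomerase, from 57.5 ± 4.84 to 145 ± 14.7 TPM (1.31 ± 0.14). Of 22 other ERAD factors 4 rose, among them Vimp for an ER membrane selenoprotein (0.90 ± 0.14) and Os9 for a lectin that hands glycoproteins to HRD1 (0.89 ± 0.15).

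Of 27 genes of COPII vesicles and ER-to-Golgi traffic 6 rose and 0 fell in KD. They included Tmed9, a cargo receptor (0.81 ± 0.12), and Sec13, a coat subunit (0.79 ± 0.13). Of 21 N-glycosylation and glucose-trimming genes 3 rose, among them Rpn1 of the oligosaccharyltransferase (0.76 ± 0.16) and Prkcsh of glucosidase II (0.64 ± 0.15). Of 24 translocon and signal peptidase genes 0 passed in either direction, as Sec61b did not, with a median of 0.22.

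Of 22 other UPR regulators 0 rose and 1 fell in KD: Trib3, a pseudokinase induced through ATF4 and CHOP, from 221 ± 69.8 to 88.9 ± 27.1 TPM (-1.28 ± 0.31). Atf4, the transcription factor translated when eIF2 alpha is phosphorylated, Ddit3 (CHOP) and Chac1, a glutathione-degrading target, were picked after their values were seen, and none of these passed. Atf4 was at 1405 ± 336 TPM in CON and 878 ± 154 TPM in KD (-0.66). Ddit3 was at 934 ± 77.7 and 993 ± 177 TPM (0.07), and Chac1 at 238 ± 79.1 and 101 ± 50.7 TPM (-1.28). In CON 4 Trib3 was at 118 TPM, Chac1 at 130 TPM and Atf4 at 911 TPM, each below the other CON libraries, as for Ppp1r15a.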

How the data were processed

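Total RNA of 12 HL-1 libraries was sequenced, and the authors deposited 1 table of TPM values per gene symbol; per the submitters' processing notes, Trim Galore 0.6.6, TopHat2 2.1.1, Cufflinks 2.2.1 and mm10 were used, while the annotation, strand and step to TPM are not given in the sources used here. All columns have the same total, so the depth is unknown and no counting interval is given. The 4 columns named WT were taken as CON, which the labels give the WT genotype; CON 1 to CON 4 follow the column numbers. In the treatment labels of KD and RE the number within the name of the nuclease or of WDR62 rises by 1 from library to library; the protocol text names Wdr62 alone, and these numbers were not used.

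Genes with a mean of at least 1 TPM, 11774 in all, were put on the log2(TPM + 1) scale, which understates changes of low genes, and fitted in 1 linear model with a mean per group (limma 3.58.1, R 4.3.3, moderated two-sided test with a mean-variance trend). The Benjamini-Hochberg adjustment ran over all 11774 genes. The fit was tested on simulated data for KD against CON, with noise drawn independently for each gene and library. In it 200 of 11774 genes were changed, none of them drawn from genes low in CON. Of genes changed by 1 log2 unit 40% passed, and of genes changed by 2 log2 units 85% (n = 100 each), with 3 false calls. These shares do not cover low genes. A gene that did not pass may therefore still differ. Positions and transcript lengths came from GENCODE M21 (GRCm38), promoters from RefSeq (GRCm38.p6). The members, lists, tests and alternatives were chosen with earlier results of these data known. Library values are given for up to 4 members a role with the largest difference and for the sensors; from each neighbouring list, up to 2 genes a direction that passed, with a mean of at least 5 TPM, are named. Alternatives were another pseudocount, other filters on low TPM, other scalings, array weights, robust moderation, a replicate block, only the compared groups and leaving out libraries.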

Additional observations from a re-analysis of the deposited data

Results flagged for a closer look

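A library far from the other 3 of its group, by Dixon's criterion, was found in 10 of 105 sets of 4 values (35 members in 3 groups), where chance gives about 1 in 20; all 10 were CON 4. It was the highest CON library for 8 members: Sdf2l1 (195 TPM against 37.1 to 50.02), Manf (251 against 106 to 121), Creld2 (387 against 143 to 160), Calr (2290 against 1106 to 1249), Pdia3 (1173 against 861 to 886), Dnajb11 (222 against 182 to 188), Edem2 (75.7 against 44.2 to 48.5) and Sec61b (164 against 72.4 to 86.1). It was the lowest for Txndc5 (169 against 287 to 291) and Sec24d (21.1 against 68.7 to 75.7).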

How the results depend on the processing

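Members higher in KD than in CON numbered 16, and 13 to 23 under every alternative run. The 13 with median-of-ratios scaling stood beside 7.54% of all tested genes, and the 23 with array weights beside 22.2%. No call of a member changed sign under any alternative. Array weights gave 2 members lower in KD than in CON in place of 0, 25 lower in RE than in KD in place of 0, and 16 higher and 9 lower in RE than in CON in place of 10 and 1, beside 32.5%, 33.5%, 12.2% and 42% of all tested genes. Quantile normalization gave 2 lower in RE than in KD and 2 lower in RE than in CON, beside 0.824% and 4.3% of all tested genes. Fitting only the 2 compared groups gave 6 higher in RE than in CON, beside 1.3% of all tested genes. Without CON 4, RE 1 and RE 3, 2 were lower in KD than in CON, and 16 higher and 4 lower in RE than in CON, beside 25.1%, 8.13% and 24% of all tested genes. Leaving out 1 library gave 13 to 18 higher and 0 to 2 lower for KD against CON, 0 to 0 higher and 0 to 12 lower for RE against KD, and 4 to 15 higher and 1 to 8 lower for RE against CON. In these fits 4.27% to 9.48% of all tested genes were higher and 2.05% to 11% lower for KD against CON. For RE against KD 0.0934% to 19.9% were lower, and for RE against CON 1.37% to 10.8% were higher and 2.17% to 42% lower. Added after the data were seen, the length trend gave 1 lower in RE than in KD, beside 126 of all 11774 tested genes. It gave 16 higher and 2 lower in RE than in CON, beside 856 and 607 of all tested genes. With CON 4 also left out, 2 members were lower in KD than in CON, beside 1894 of all tested genes. In RE against KD 1 was then higher and 3 lower, beside 752 and 613 of all tested genes. In RE against CON 21 were then higher and 4 lower, beside 2460 and 2346 of all tested genes. The cause of these shifts was not tested. With the replicate block 5 were higher in RE than in CON, beside 1.6% of all tested genes. With the block and the length trend, 1 was lower in KD than in CON and 2 lower in RE than in CON. Of all 11774 tested genes 754 and 453 were then lower. Deviations of same-numbered libraries had no common sign (r from -0.71 to 0.65 over 12 pairs). These values also take in the differences in long transcripts, so they cannot decide whether libraries of 1 number share a batch. The numbers are used here as names of libraries only. Over all tested genes, 777 higher and 425 lower calls in KD against CON ranged over the alternatives from 503 to 2611 and from 241 to 3822, those of RE against KD (22 and 101) from 2 to 1364 and from 11 to 3941, and those of RE against CON (318 and 427) from 153 to 2460 and from 238 to 4946. Median-of-ratios scaling gave 32 and 46 in RE against KD and 595 and 500 in RE against CON, quantile normalization 67 and 97, and 672 and 506, and the length trend 1342 and 1116 in KD against CON, 108 and 126 in RE against KD, and 856 and 607 in RE against CON. The depth is unknown, so it cannot be said which low values, such as those of Ern1 and Ero1lb, it limits.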
